A study of Mus musculus with 20 samples.

Results

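The genes described here are 10 commonly used markers of astrocytes: Fabp7, Slc1a3, Slc1a2, Mt3, Mt1, Aldoc, Apoe, Sparcl1, Aldh1l1 and Gfap. They are a list of names that was drawn up with earlier results of these data known, and all 10 were found among the 55487 genes counted. RNA was sequenced from subcerebral projection neurons, the cortical neurons that send axons to the brainstem and spinal cord, in mice at postnatal day 1. Of the 20 libraries, 10 came from growth cones, the motile ends of axons, in brainstem and spinal cord, and 10 came from somata (cell bodies) in cortex. Each compartment had 5 libraries from wild-type (WT) neurons and 5 labelled KO, meaning null for the transcription factor gene Bcl11b. The allele, any Cre driver, the way the neurons were marked and sorted, and whether the libraries of a group came from separate animals or litters are not given in the sources used here. The p-values therefore measure the spread between these samples, which may be technical.

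Astrocytes are glial cells that clear glutamate from synapses, feed neurons and supply them with lipid. They arise from radial glia, the stem cells of the developing nervous system, and around birth they are still young and dividing. The 10 genes cover their main tasks: glutamate uptake (Slc1a3, Slc1a2), fatty acid binding (Fabp7), lipid transport (Apoe), metal binding (Mt1, Mt3), glycolysis (Aldoc), folate metabolism (Aldh1l1), secreted matrix signals (Sparcl1) and the cytoskeleton (Gfap). In bulk samples such as these, fewer cells of a type and less RNA per cell cannot be told apart.

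Total counts per library ran from 21657575 to 29323028 in growth cones and from 18962308 to 51205154 in somata. Growth cone and soma libraries also differed in tissue, in RNA input (0.19 to 3.1 ng for growth cones and 1.8 to 3.1 ng for somata) and in experiment number. These differences cannot be told apart from the compartment. Libraries are named below by the experiment number in their labels. Bcl11b itself went against the labels in somata: its WT level was 700 ± 130 CPM (counts scaled to library totals adjusted by TMM factors; SD, n = 5), and its level in libraries labelled KO was 1150 ± 56.7 CPM (log2 difference 0.71 ± 0.12 SE, adjusted p = 0.0153, edgeR). In growth cones it stood at 101 ± 19.3 CPM in WT and 102 ± 35.0 CPM in libraries labelled KO. The count over the whole gene need not show which part of it was deleted. WT soma library 12 had the lowest value of its group in 6 of the 10 astrocyte genes, as did soma library 22 labelled KO. Library 12 was far below its group for some. Slc1a3 was at 4.32 CPM where the next WT soma library had 34.9, and Aldh1l1 at 0.345 CPM where the next had 8.48. Results that use library 12 are given with and without it where it matters.

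All 10 genes are protein-coding. On mouse build GRCm38, Fabp7 (ENSMUSG00000019874.11) lies on chromosome 10 from 57784881 to 57788450. Slc1a3 (ENSMUSG00000005360.14) lies on chromosome 15 from 8634124 to 8710764, and Slc1a2 (ENSMUSG00000005089.15) on chromosome 2 from 102658659 to 102790784. The metallothionein genes are neighbours on the plus strand of chromosome 8, with Mt3 (ENSMUSG00000031760.9) from 94152607 to 94154146, Mt2 (ENSMUSG00000031762.7) from 94172664 to 94173568 and Mt1 (ENSMUSG00000031765.8) from 94179082 to 94180327. Aldoc (ENSMUSG00000017390.15) and Gfap (ENSMUSG00000020932.14) are both on chromosome 11, from 78322968 to 78327781 and from 102887336 to 102900912. Apoe (ENSMUSG00000002985.16) is on chromosome 7 from 19696109 to 19699188, and Sparcl1 (ENSMUSG00000029309.7) is on chromosome 5 from 104079111 to 104113733. Aldh1l1 (ENSMUSG00000030088.15) is on chromosome 6 from 90486427 to 90600203. Exons of Slc1a2 overlap a gene on the opposite strand (Gm13872). Exons of Aldh1l1 overlap Gm45901 on the same strand and Gm15756 on the opposite one. Whether counting used strand is not stated, so reads of these overlaps cannot be told apart.

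Most of the astrocyte genes were far more abundant in growth cone libraries than in somata, under both genotype labels. Among WT libraries 8 of the 10 were higher in growth cones, 1 (Sparcl1) was lower and 1 (Aldh1l1) did not pass the test, which was the edgeR quasi-likelihood test at a false discovery rate of 0.05 over all genes. Among libraries labelled KO 8 of the 10 were higher, 0 were lower and 2 (Sparcl1 and Aldh1l1) did not pass. Over all 15128 genes tested in WT, 42.8% were called, 23.1% higher and 19.7% lower. Over the 15410 genes tested in libraries labelled KO, 38.6% were called, 21.6% higher and 17.0% lower. The median log2 difference of the 10 genes was 3.14 in WT and 2.58 in libraries labelled KO, beside 0.07 and 0.11 over all genes tested. The groups did not overlap, with growth cones above, for 8 of the 10 in WT (19.8% of all genes) and for 7 of the 10 in libraries labelled KO (17.9%).

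Together the 10 genes took 0.300% to 0.370% of all counts in the WT libraries of growth cones, and their KO-labelled counterparts gave 0.284% to 0.394%. The share in somata was 0.0390% to 0.0962% for WT and 0.0402% to 0.0872% for the KO label. Every growth cone library thus had a larger share than any soma library.

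**Figure D1:**
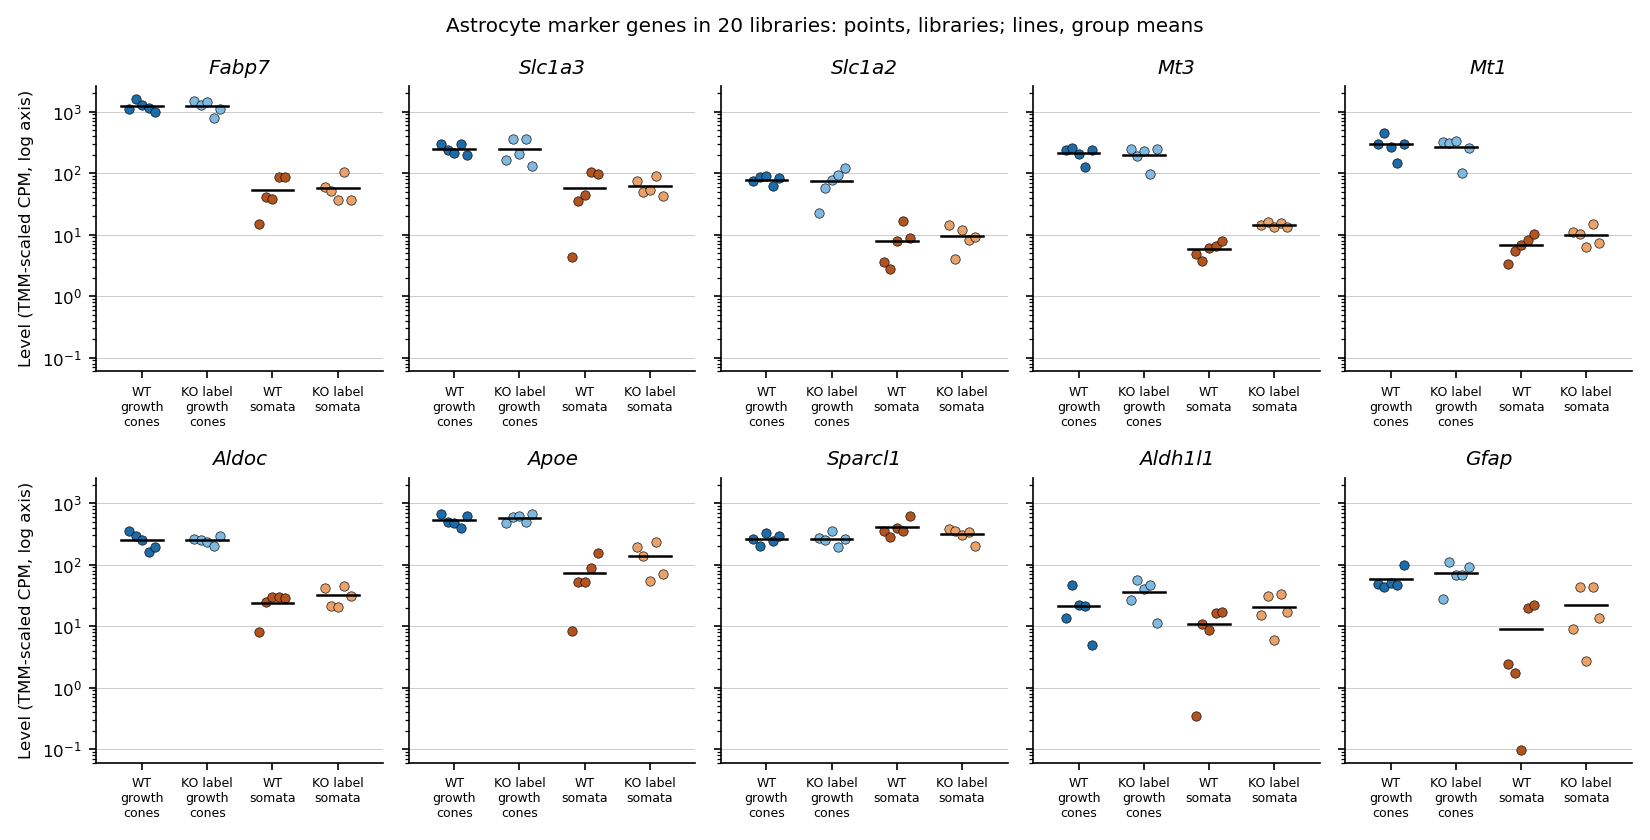
Level of each of the 10 genes in TMM-scaled CPM (log axis) in all 20 libraries, by group; points are libraries and lines are group means. For Fabp7, Slc1a3, Slc1a2, Mt3, Mt1, Aldoc and Apoe all 10 growth cone libraries lie above all 10 soma libraries, while the Sparcl1 groups overlap.

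Fabp7 encodes brain lipid-binding protein, a fatty acid carrier of radial glia and young astrocytes. In WT growth cones 7 to 11 it was counted at 1099, 1603, 1287, 1127 and 976 CPM, and in WT somata 12, 14, 22, 25 and 26 at 14.7, 41.2, 37.9, 86.5 and 85.8 CPM. Growth cones labelled KO 7 to 11 had 1495, 1285, 1423, 792 and 1117 CPM, and somata labelled KO 14, 15, 22, 25 and 26 had 60.0, 51.2, 36.1, 106 and 36.5 CPM. The lowest growth cone library stood 7.49 times above the highest soma library. The log2 difference was 4.57 ± 0.44 (SE) in WT (adjusted p = 8.22e-06) and 4.48 ± 0.34 for the KO label (adjusted p = 2.60e-06).

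The metallothioneins, small cysteine-rich proteins that bind zinc and copper, had the largest log2 differences of the 10 genes in WT. Mt3, the brain form, was at 236, 259, 206, 128 and 235 CPM in WT growth cones 7 to 11 and at 4.79, 3.65, 6.08, 6.55 and 7.91 CPM in WT somata 12, 14, 22, 25 and 26. Libraries labelled KO had 244, 190, 227, 97.9 and 243 CPM in growth cones 7 to 11 and 14.2, 16.1, 13.5, 15.1 and 13.1 CPM in somata 14, 15, 22, 25 and 26. Library 10 was the lowest growth cone library under both labels, and it still stood above every soma library. The log2 difference of Mt3 was 5.25 ± 0.29 in WT (adjusted p = 1.68e-07) and 3.88 ± 0.26 for the KO label (adjusted p = 1.13e-06).

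Mt1, a metallothionein induced by metals and stress hormones in many cell types, was at 299, 445, 270, 147 and 298 CPM in WT growth cones 7 to 11 and at 3.38, 5.32, 6.89, 8.28 and 10.4 CPM in WT somata 12, 14, 22, 25 and 26. Libraries labelled KO had 323, 307, 333, 101 and 256 CPM in growth cones 7 to 11 and 10.8, 10.2, 6.28, 15.04 and 7.29 CPM in somata 14, 15, 22, 25 and 26. Growth cone library 10 was again the lowest under both labels. The log2 difference of Mt1 was 5.46 ± 0.38 in WT (adjusted p = 8.22e-07) and 4.82 ± 0.38 for the KO label (adjusted p = 3.45e-06). Mt2, which lies between Mt3 and Mt1 and is close to Mt1 in sequence, differed by 5.37 ± 0.66 (adjusted p = 5.45e-05) and 4.29 ± 0.64 (adjusted p = 0.000277). Its level was lower, with a WT mean of 16.0 ± 6.94 CPM in growth cones (SD, n = 5) and of 0.396 ± 0.147 CPM in somata. How the counting treated any reads that map to both genes is not given in the sources used here.

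Slc1a3 (GLAST) and Slc1a2 (GLT-1) are the transporters with which astrocytes take up glutamate. Slc1a3 was at 296, 239, 213, 302 and 196 CPM in WT growth cones 7 to 11 and at 4.32, 34.9, 43.4, 103 and 95.4 CPM in WT somata 12, 14, 22, 25 and 26. In libraries labelled KO it was at 162, 359, 202, 362 and 130 CPM in growth cones 7 to 11 and at 75.2, 48.8, 53.6, 91.1 and 42.7 CPM in somata 14, 15, 22, 25 and 26. The compartments did not overlap, but they came close: the lowest growth cone library stood 1.27 times above the highest soma library. The log2 difference of Slc1a3 was 2.20 ± 0.59 in WT (adjusted p = 0.00950) and 2.04 ± 0.33 for the KO label (adjusted p = 0.000495). Without WT soma library 12 the WT difference was 1.97 (adjusted p = 0.000912).

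Slc1a2 was less abundant, at 75.2, 85.7, 88.3, 62.0 and 81.7 CPM in WT growth cones 7 to 11 and 3.60, 2.73, 7.86, 16.4 and 8.83 CPM in WT somata 12, 14, 22, 25 and 26. Libraries labelled KO had 22.3, 58.2, 76.1, 94.7 and 119 CPM in growth cones 7 to 11 and 14.3, 3.93, 11.8, 8.25 and 9.10 CPM in somata 14, 15, 22, 25 and 26. Growth cone library 7 labelled KO was low for Slc1a2, and it still lay above all somata. Growth cones and somata differed on the log2 scale by 3.36 ± 0.46 in WT (adjusted p = 0.000112) and 3.04 ± 0.48 for the KO label (adjusted p = 0.000406). Slc1a1 (EAAC1), the family member best known from neurons, went the other way: it was lower in growth cones by a log2 difference of -1.36 ± 0.23 in WT (adjusted p = 0.000468) and -1.28 ± 0.27 for the KO label (adjusted p = 0.00311). Slc1a4 (ASCT1), a transporter of neutral amino acids from the same family, was lower as well, by -1.45 ± 0.23 (adjusted p = 0.000346) and -1.45 ± 0.39 (adjusted p = 0.0121).

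Aldoc encodes aldolase C, the brain form of the glycolytic enzyme aldolase. It was at 350, 296, 255, 163 and 196 CPM in WT growth cones 7 to 11 and at 8.08, 24.2, 29.5, 30.2 and 28.8 CPM in WT somata 12, 14, 22, 25 and 26. In libraries labelled KO it was at 258, 247, 236, 202 and 291 CPM in growth cones 7 to 11 and at 41.0, 21.4, 20.3, 44.6 and 30.8 CPM in somata 14, 15, 22, 25 and 26. WT soma library 12 lay well below the other 4 of its group, and the compartments did not overlap. The log2 difference was 3.43 ± 0.36 in WT (adjusted p = 1.42e-05) and 3.04 ± 0.25 for the KO label (adjusted p = 4.22e-06). Without WT soma library 12 the WT difference was 3.29 (adjusted p = 5.48e-06). Aldoa, the widely expressed aldolase, differed much less: by 0.29 ± 0.15 in WT (adjusted p = 0.149) and by 0.54 ± 0.12 for the KO label (adjusted p = 0.00447). The WT call changed with the scaling, at adjusted p = 0.0185 when libraries were scaled to their totals alone, and without WT growth cone library 10, at adjusted p = 0.0489.

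Apoe encodes apolipoprotein E, the main carrier of cholesterol between brain cells. WT growth cones 7 to 11 had 652, 486, 473, 387 and 615 CPM, and WT somata 12, 14, 22, 25 and 26 had 8.46, 52.8, 52.6, 89.2 and 156 CPM. Growth cones labelled KO 7 to 11 had 477, 589, 616, 489 and 659 CPM, and somata labelled KO 14, 15, 22, 25 and 26 had 195, 140, 54.9, 229 and 71.3 CPM. Somata varied widely, and the highest of them still lay below every growth cone library. Growth cones and somata differed on the log2 scale by 2.92 ± 0.55 in WT (adjusted p = 0.00110) and 2.11 ± 0.36 for the KO label (adjusted p = 0.000677). Without WT soma library 12 the WT difference was 2.704 (adjusted p = 0.000142).

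Gfap encodes the intermediate filament protein of mature and reactive astrocytes. It was at 48.9, 42.6, 50.4, 46.9 and 99.1 CPM in WT growth cones 7 to 11 and at 2.38, 1.72, 0.0975, 19.5 and 21.7 CPM in WT somata 12, 14, 22, 25 and 26. The value in WT soma library 22 rested on 3 counts. Libraries labelled KO had 27.2, 111, 68.7, 68.6 and 90.7 CPM in growth cones 7 to 11 and 9.13, 42.8, 2.71, 42.7 and 13.4 CPM in somata 14, 15, 22, 25 and 26. The WT groups did not overlap, while somata 15 and 25 labelled KO were above growth cone library 7 labelled KO. The log2 difference was 2.72 ± 0.97 in WT (adjusted p = 0.0391) and 1.80 ± 0.66 for the KO label (adjusted p = 0.0491). By limma-voom the WT log2 difference was larger, at 4.42 (adjusted p = 0.00384). Both calls were close to the threshold. The WT call was lost in 7 of 18 alternative analyses: without the low-count filter (adjusted p = 0.0601) and without any 1 of WT growth cones 7, 9, 10 and 11 and WT somata 12 and 14 (adjusted p from 0.0527 to 0.0786). The call for the KO label was lost in 10 of 18, with the highest adjusted p, 0.126, in the fit of all 20 libraries, and without any 1 of growth cones 8, 9, 10 and 11 and somata 14, 22 and 26 (0.0570 to 0.117).

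Aldh1l1, a folate enzyme used widely to label astrocytes, did not pass in either comparison. It was at 13.7, 46.2, 22.3, 20.9 and 4.85 CPM in WT growth cones 7 to 11 and at 0.345, 10.9, 8.48, 16.2 and 17.1 CPM in WT somata 12, 14, 22, 25 and 26. In libraries labelled KO it was at 26.2, 57.1, 40.0, 46.1 and 11.4 CPM in growth cones 7 to 11 and at 14.98, 31.3, 5.99, 33.7 and 17.2 CPM in somata 14, 15, 22, 25 and 26. The groups overlapped under both labels, and growth cone library 11 was the lowest of its group in each. Growth cones and somata differed on the log2 scale by 1.07 ± 0.80 in WT (adjusted p = 0.306) and 0.89 ± 0.52 for the KO label (adjusted p = 0.206). Its mitochondrial relative Aldh1l2 was lower in WT growth cones, by -4.06 ± 0.67 (adjusted p = 0.000446), and the corresponding difference in libraries labelled KO was -2.79 ± 1.09 (adjusted p = 0.0630).

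Sparcl1 (hevin), a secreted matrix protein that promotes synapse formation, was the only one of the 10 genes with a higher mean in somata. WT growth cones 7 to 11 had 260, 197, 322, 241 and 294 CPM, and WT somata 12, 14, 22, 25 and 26 had 354, 286, 394, 358 and 615 CPM. Growth cones labelled KO 7 to 11 had 266, 253, 345, 196 and 261 CPM, and somata labelled KO 14, 15, 22, 25 and 26 had 375, 357, 307, 334 and 199 CPM. The compartments overlapped under both labels. The log2 difference was -0.56 ± 0.20 in WT (adjusted p = 0.0421) and -0.17 ± 0.19 for the KO label (adjusted p = 0.527). The WT call was lost in 14 of 18 alternative analyses, among them without any 1 of WT growth cones 7, 8 and 10 and WT somata 12, 22, 25 and 26 (adjusted p from 0.0620 to 0.105) and under upper quartile scaling (0.199). That scaling raised the median log2 difference of all genes from 0.07 to 0.28 in WT and from 0.11 to 0.31 in libraries labelled KO, where it turned the Sparcl1 difference to 0.025.

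**Figure D2:**
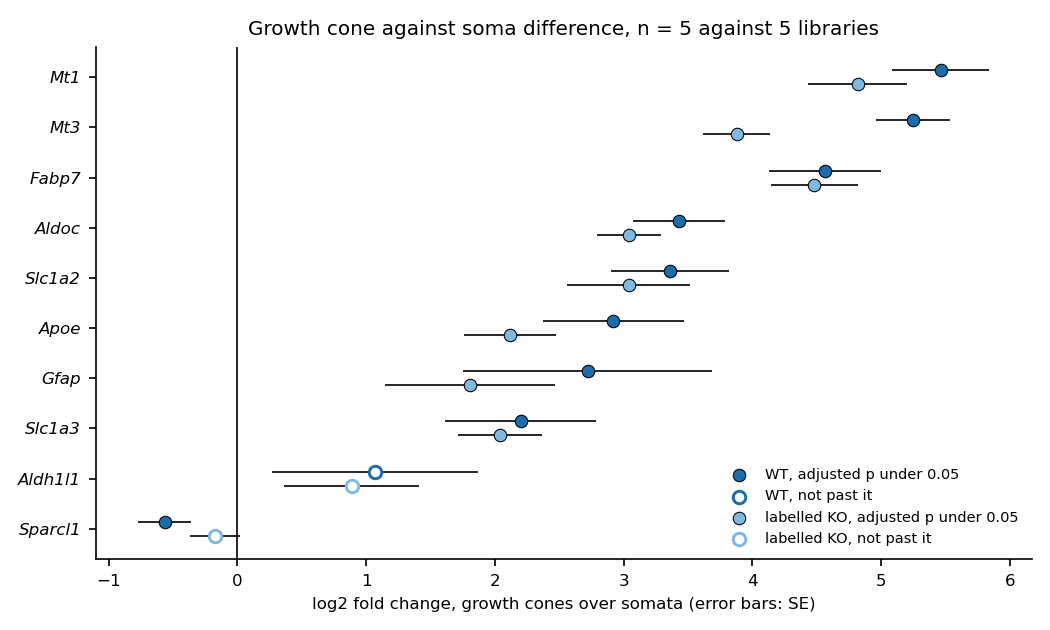
The log2 fold change of each of the 10 genes between growth cones and somata, for WT and for libraries labelled KO; error bars are SE, filled points have an adjusted p under 0.05 (edgeR) and open points do not. Values run from 5.46 for Mt1 to -0.56 for Sparcl1 in WT, and the open points are Aldh1l1 under both labels and Sparcl1 in libraries labelled KO.

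The order of the 10 genes was compared as CPM per kilobase of gene length. Fabp7 came first in both growth cone groups, at 975 ± 193 (SD, n = 5) in WT and 978 ± 225 in libraries labelled KO, apart from the rest. Apoe, at 244 ± 50.97 and 265 ± 37.3, and Mt1, at 234 ± 85.2 and 212 ± 77.1, followed with overlapping ranges, and Mt3 overlapped Mt1. Sparcl1 and Aldoc came next and overlapped each other, and then Slc1a3 overlapped Gfap. At the low end stood Slc1a2, at 5.98 ± 0.797 and 5.64 ± 2.79, and Aldh1l1, at 4.78 ± 3.41 and 8.004 ± 3.94, whose ranges overlapped.

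In somata the order was different. Sparcl1 came first, at 137 ± 42.8 CPM per kilobase in WT and 107 ± 23.6 in libraries labelled KO. Fabp7 (42.6 ± 25.4 and 46.3 ± 22.9) and Apoe (33.5 ± 25.7 and 64.6 ± 35.4) were the next and overlapped each other, and Apoe overlapped Sparcl1 in libraries labelled KO. Mt3, Aldoc, Mt1 and Slc1a3 formed a group from 5.44 to 7.40 in WT in which neighbours overlapped. Slc1a2 was last, at 0.600 ± 0.414 and 0.723 ± 0.298, with a range apart from that of Aldh1l1 in libraries labelled KO and overlapping that of Gfap in WT.

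The relatives of these genes did not move as a block. The counts for each list stand beside 23.1% higher and 19.7% lower over all genes in WT, and 21.6% and 17.0% in libraries labelled KO. Of 15 genes of glutamate transport and recycling tested in WT, 6 were higher in growth cones and 5 lower, with a median log2 difference of 0.32. In libraries labelled KO 3 of 13 were higher and 4 lower, with a median of -0.48. Gjb6, a connexin of astrocyte gap junctions that was in this list and in the wider astrocyte list, was at least 121-fold higher in WT growth cones against the floor of 3 counts per library. It did not pass the low-count filter among soma libraries alone, so its call was largely set by that filter.

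Genes of metallothionein and zinc handling gave 4 higher and 5 lower of 13 in WT and 3 higher and 4 lower of 13 in libraries labelled KO. Beside Mt2, Slc30a3, a zinc transporter of synaptic vesicles, was at least 299-fold higher in WT growth cones and higher by a log2 difference of 5.38 in libraries labelled KO (adjusted p = 0.00749). Slc39a6, a zinc importer, was lower by -1.51 (adjusted p = 0.00164) and -1.61 (adjusted p = 0.00232). The fatty acid binding and activation list had 2 higher and 4 lower of 6 in WT and 2 higher and 3 lower of 6 in libraries labelled KO. Fabp3, a relative of Fabp7, was higher by 1.92 ± 0.16 (adjusted p = 2.82e-06) and 1.74 ± 0.19 (adjusted p = 2.97e-05), and Dbi, the acyl-CoA binding protein, by 3.36 and 3.07. The acyl-CoA synthetases Acsl3 and Acsl4 were lower, Acsl3 by -1.95 and -1.25 and Acsl4 by -1.97 and -2.19.

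Lipid transport genes other than Apoe were mostly not called or lower: 1 higher and 4 lower of 11 in WT, and 0 higher and 4 lower of 10 in libraries labelled KO. Vldlr and Lrp8, receptors that bind apolipoprotein E, were lower: Vldlr by -2.53 (adjusted p = 0.000111) and -1.38 (adjusted p = 0.0155), and Lrp8 by -0.75 (adjusted p = 0.0421) and -1.18 (adjusted p = 0.0182). The gene called higher in WT was Abca1, a cholesterol exporter that loads apolipoprotein E (3.48 ± 1.31, adjusted p = 0.0487), named after its value was seen.

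Glycolysis genes other than Aldoc were mainly lower in growth cones, with 3 higher and 10 lower of 15 in WT (median -1.13) and 5 higher and 9 lower of 15 in libraries labelled KO (median -0.87). Ldha, lactate dehydrogenase A, was lower by -1.67 and -1.40, and Eno1, the widely expressed enolase, by -1.75 and -1.72. Folate genes gave 0 higher and 2 lower of 8 under each label, near the share of all genes that were lower (19.7% and 17.0%). Among relatives of Sparcl1 and other secreted synapse factors 2 were higher and 2 lower of 10 in WT and 2 higher and 1 lower of 10 in libraries labelled KO. Sparc, which is close to Sparcl1 in structure, was higher by 3.47 ± 0.38 (adjusted p = 2.30e-05) and 3.22 ± 0.39 (adjusted p = 6.52e-05), and Spock1, a matrix proteoglycan, was lower by -2.83 ± 0.30 (adjusted p = 1.88e-05) and -3.21 ± 0.22 (adjusted p = 1.13e-06). Intermediate filament genes other than Gfap gave 3 higher and 0 lower of 8 in WT and 4 higher and 0 lower of 8 in libraries labelled KO. Vim, the filament of radial glia and young astrocytes, was higher by 2.14 ± 0.31 (adjusted p = 0.000155) and 2.37 ± 0.39 (adjusted p = 0.000576), and Prph, peripherin, a filament of neurons with long peripheral axons, by 2.23 ± 0.35 (adjusted p = 0.000301) and 3.77 ± 0.63 (adjusted p = 0.000634).

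**Figure D3:**
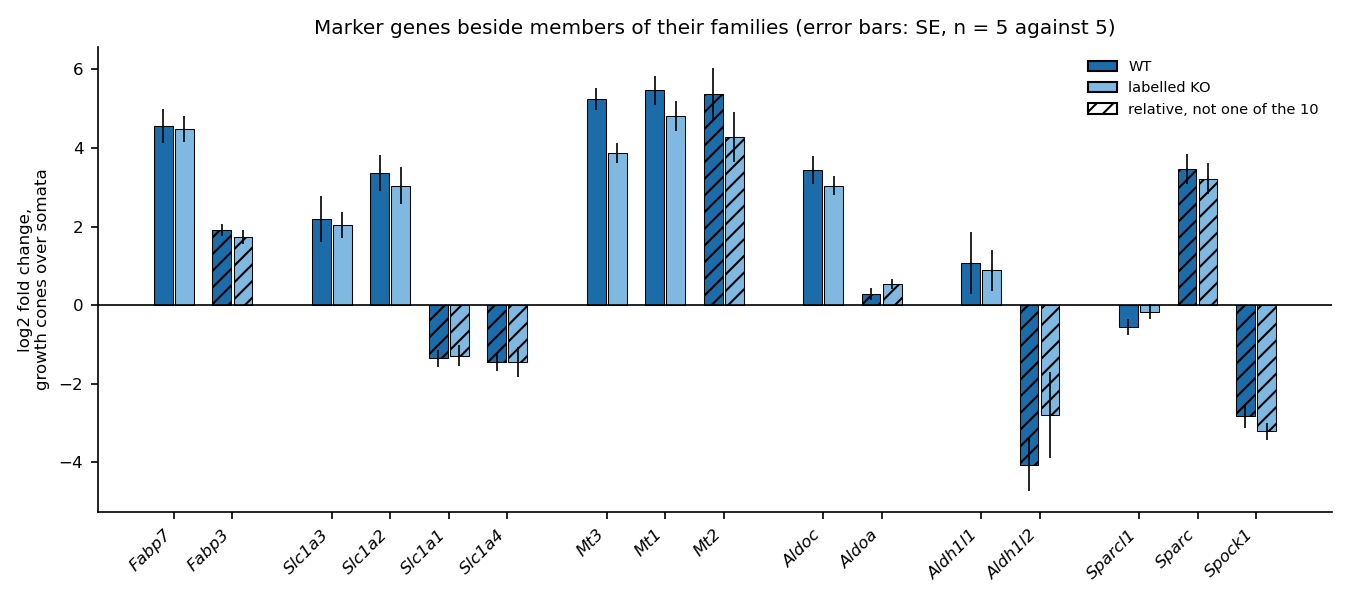
The log2 fold change between growth cones and somata of the marker genes and of members of their families; bars start at 0, error bars are SE, hatched bars are relatives and colours are the genotype labels. Slc1a1, Slc1a4, Spock1 and Aldh1l2 lie below 0, while Mt2, Fabp3 and Sparc lie above it.

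Other genes of glia were largely higher in growth cone libraries too, beside 23.1% of all genes in WT and 21.6% in libraries labelled KO. In a wider list of astrocyte genes 27 of 40 tested were higher and 1 lower in WT (median log2 difference 2.66), and 26 of 37 were higher and 1 lower in libraries labelled KO (median 2.02). Of the 40, 34 passed the low-count filter among soma libraries alone, so some were tested largely through growth cones. Id3, a regulator that holds cells undifferentiated, was higher by 5.33 and 5.13, and Ptn, the growth factor pleiotrophin, by 1.67 and 2.01. The gene called lower under both labels was Cpe, a peptide-processing enzyme that neuroendocrine cells also use (-0.73 and -0.76), named after its values were seen. Of 10 radial glia genes 8 were higher and 0 lower in WT, and 7 were higher and 0 lower in libraries labelled KO. Hes5, a Notch target, was at 106 CPM in WT growth cones against 1.52 CPM in WT somata, and Hopx at 89.6 against 1.86 CPM.

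All 12 glial transcription factors tested were called under each label, 9 higher and 3 lower. The lower ones were Nfix, Nfib and Id2, the last 2 named after their values were seen. Cortical neurons also express them, and Nfix was lower by -2.12 ± 0.14 (adjusted p = 6.02e-07) and -2.25 ± 0.18 (adjusted p = 4.22e-06). Id4, an inhibitor of differentiation, was higher by 3.37 and 4.48. Some genes are in several of these lists, so the lists are not independent.

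Genes of several other cell types and of the tissue of origin also differed between compartments. Over all genes tested 23.1% were higher and 19.7% lower in WT, and 21.6% and 17.0% in libraries labelled KO. Oligodendrocyte lineage genes were higher for 9 of 12 in WT and 8 of 11 in libraries labelled KO, with 0 lower in both. Their summed level, scaled like all such sums here to the library total without TMM factors, ran from 643 to 2667 CPM over WT growth cones and from 659 to 1915 CPM over those labelled KO, beside 64.5 to 120 and 87.8 to 124 CPM over the somata. Blood genes, mostly hemoglobins, were higher for 4 of 4 and 4 of 5, with sums of 208 to 554 CPM over all growth cones and 1.22 to 18.6 CPM over all somata, and Hbb-y at 0 throughout. Meningeal genes were higher for 5 of 6 under each label, with sums of 81.7 to 262 CPM against 1.90 to 27.4 CPM. In soma libraries alone 8 of 13 listed oligodendrocyte, 4 of 6 blood and 4 of 6 meningeal genes passed the low-count filter. Some genes of these lists were thus tested largely through growth cones. Of 7 listed choroid plexus and ependymal genes, 2 were tested under each label, with 2 called higher in WT and 1 in libraries labelled KO. The rest had too few counts for the test. Among soma libraries alone 1 of the 7 passed the low-count filter, so which genes were tested rested largely on growth cones. The sums were 240 to 428 CPM against 0.137 to 6.89 CPM. Ttr, the choroid plexus carrier of thyroid hormone, was at 315 CPM in WT growth cones and 0.264 CPM in WT somata.

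Of 12 listed genes of hindbrain and spinal cord, mostly Hox genes, 8 were tested in WT and 6 in libraries labelled KO. All of those tested were called higher. Among soma libraries alone 0 of the 12 passed the low-count filter, so the genes tested passed it through growth cones. Their calls were thus largely set by the filter. Their sums were 43.7 to 216 CPM over all growth cones and 0.0257 to 0.259 CPM over all somata, where 2 of the 12 genes listed were at 0 in WT and 7 of 12 in libraries labelled KO. Microglial genes gave 2 higher and 1 lower of 11 in WT and 2 higher and 0 lower of 11 under the KO label, and their sums overlapped (58.2 to 152 CPM over all growth cones, 40.3 to 206 CPM over all somata). Vessel genes gave 1 higher of 8 in WT and 1 higher of 9 under the KO label, with 0 lower in both. The log2 estimates were positive for all 8 and all 9, with medians of 2.95 and 2.696. Vessel sums were 26.8 to 134 CPM in WT growth cones against 4.47 to 26.3 CPM in WT somata, without overlap. Under the KO label the sums were 66.7 to 110 against 1.25 to 72.8 CPM, with overlap. Among soma libraries alone 4 of the 12 listed vessel genes passed the low-count filter, so some were tested largely through growth cones. For microglial and vessel genes the share called higher was below that over all genes (23.1% in WT and 21.6% for the KO label).

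Neuronal genes were lower in growth cones for 3 of 10 in WT and 5 of 10 in libraries labelled KO, with 0 higher. Over all genes tested 19.7% and 17.0% were lower. Their sums were 6824 to 8648 CPM in WT growth cones and 10961 to 13462 CPM in WT somata, and all 10 averaged at least 5 CPM in every group. Tubb3, a tubulin of neurons, was lower by -1.85 under both labels. The part of other cells, tissue, RNA input and experiment in the differences of the astrocyte genes was not tested.

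Between genotype labels in somata, 0 of the 10 genes passed the edgeR test, beside 0.731% of the 14911 genes tested. At an unadjusted p under 0.05 there was 1 of the 10, beside 8.57% of all genes. The estimates were positive (higher in libraries labelled KO) for 9 of the 10, with a median log2 difference of 0.46, beside a median of -0.0030 over all genes. Sparcl1 was the exception, at -0.36 ± 0.21 (adjusted p = 0.775). Without WT soma library 12 the estimates of Fabp7 (-0.12) and Slc1a3 (-0.15) were negative too. The same held without soma library 25 labelled KO, for Fabp7 (-0.21) and Slc1a3 (-0.024). The 10 genes also varied together across somata, so their signs are not separate observations.

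Mt3 came closest to the threshold. The 5 somata labelled KO, with 13.1 to 16.1 CPM, all lay above the 5 WT somata, with 3.65 to 7.91 CPM, and it was the only one of the 10 genes without overlap, beside 1.87% of all genes higher without overlap. Means were 14.4 ± 1.21 CPM (SD, n = 5) and 5.80 ± 1.64 CPM, and the log2 difference was 1.31 ± 0.27 (adjusted p = 0.0561). It passed in 5 of 19 alternative analyses, at adjusted p = 0.0493 with scaling to library totals alone, 0.000149 by DESeq2, 0.0174 by limma-voom, 0.0217 in a fit of all 20 libraries and 0.0401 without WT soma library 26. It did not pass in the other 14, where the adjusted p reached 0.326. That value came from a fit with experiment numbers as pairs, which left out WT soma library 12 and soma library 15 labelled KO.

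The remaining genes overlapped between labels. Apoe stood at 72 ± 54.9 CPM in WT somata and 138 ± 75.7 CPM in somata labelled KO (log2 difference 0.95 ± 0.60, adjusted p = 0.812). Gfap stood at 9.07 ± 10.6 and 22.1 ± 19.2 CPM (1.29 ± 1.05, adjusted p = 0.907), and Aldh1l1 at 10.6 ± 6.78 and 20.6 ± 11.7 CPM (0.96 ± 0.71, adjusted p = 0.881). Mt1 differed by 0.53 ± 0.38, Aldoc by 0.39 ± 0.35, Slc1a2 by 0.27 ± 0.51, Slc1a3 by 0.15 ± 0.58 and Fabp7 by 0.12 ± 0.44, with adjusted p from 0.861 to 0.994. Without WT soma library 12 the difference of Slc1a3 was -0.15 and that of Fabp7 was -0.12, and without soma library 25 labelled KO they were -0.024 and -0.21. Of the wider astrocyte list 0 of 34 genes tested passed (median 0.27), and of the radial glia list 0 of 10 (median 0.82). In all the lists given above the 1 gene called between labels in somata was the neuronal transcription factor gene Neurod6, higher in libraries labelled KO by 0.50 ± 0.10 (adjusted p = 0.0491).

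In growth cones 0 of the 10 genes passed between labels, beside 0% of the 15419 genes tested by edgeR. At an unadjusted p under 0.05 there were 0 of the 10, beside 329 of all genes (2.13%), and DESeq2 and limma-voom also called 0 of the 10. The median log2 difference of the 10 was 0.0015. All groups overlapped. The estimates ran from -0.13 ± 0.31 for Mt1 to 0.79 ± 0.58 for Aldh1l1, and for Fabp7, Slc1a3, Aldoc and Sparcl1 they lay between -0.014 and 0.016. The adjusted p was 0.999 for each.

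**Figure D4:**
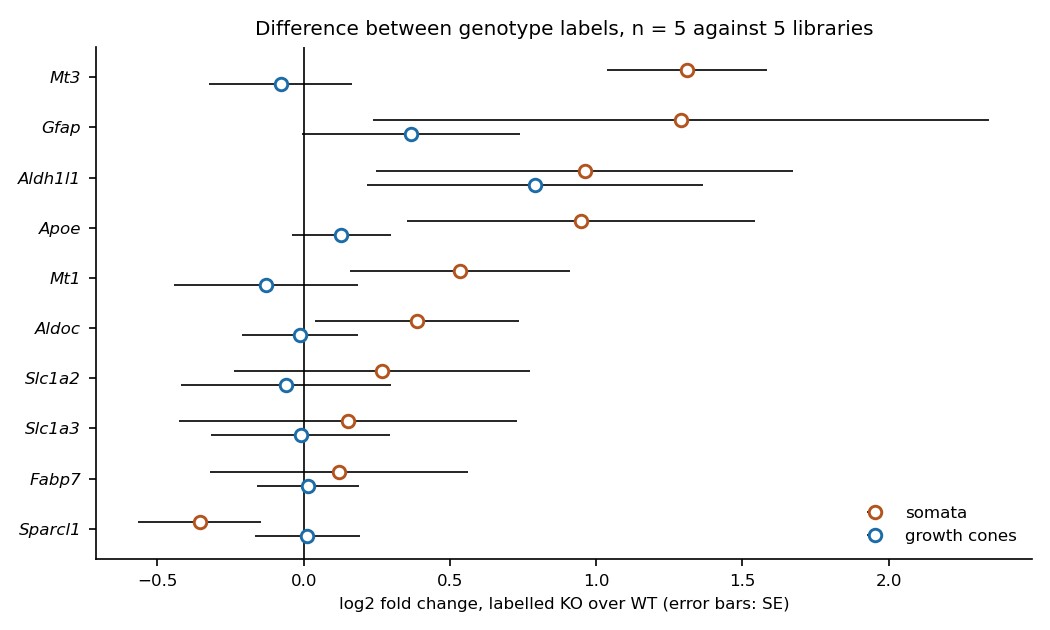
The log2 fold change between libraries labelled KO and WT for the 10 genes, in somata and in growth cones; points are estimates, error bars are SE, and none passed the edgeR test. In somata Mt3 lies at 1.31 and Sparcl1 at -0.36, and in growth cones the values lie between -0.13 and 0.79.

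The difference between the labels' compartment differences was tested with an interaction term over all 20 libraries. Of the 10 genes 0 passed, beside 0.0397% of 17645 genes, and 1 had an unadjusted p under 0.05, beside 1231 of all genes (6.98%). That gene was Mt3, at -1.40 ± 0.34 (adjusted p = 0.209 by edgeR and 0.00600 by DESeq2, and from 0.103 to 0.798 in the other alternatives). The growth cone to soma difference of Mt3 was thus estimated as smaller in libraries labelled KO, where the soma level was higher.

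The 10 genes varied together across somata and less so across growth cones. Pearson correlations of log2(CPM + 0.5) were computed over the 10 libraries of a compartment, each value taken relative to the mean of its genotype label. These libraries share scaling and differ in depth, so the values are descriptions. In somata all 45 pairs had a positive r, with a median of 0.58 and a range from 0.11 to 0.95, and 30 pairs were above 0.5. Over all pairs of the 10371 genes with at least 5 CPM in somata the median was 0.001, and 50.1% were positive. The highest values joined Fabp7, Mt1 and Apoe (r = 0.95 for each pair), and Slc1a3 and Aldh1l1 were close to this group (Fabp7 with Slc1a3, 0.92, and Apoe with Aldh1l1, 0.91). Without WT soma library 12 the median was 0.61, and 44 of the 45 pairs were positive.

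In growth cones 25 of the 45 pairs were positive, with a median r of 0.034 and a range from -0.69 to 0.94. Over all pairs of the 11641 genes with at least 5 CPM there the median was -0.004. Here Mt1 and Mt3 varied together (0.94), and Fabp7 followed Mt1 (0.79). Slc1a3 ran against Mt3 (-0.69), and it followed Aldh1l1 (0.61), while Slc1a2 followed Gfap (0.67).

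**Figure D5:**
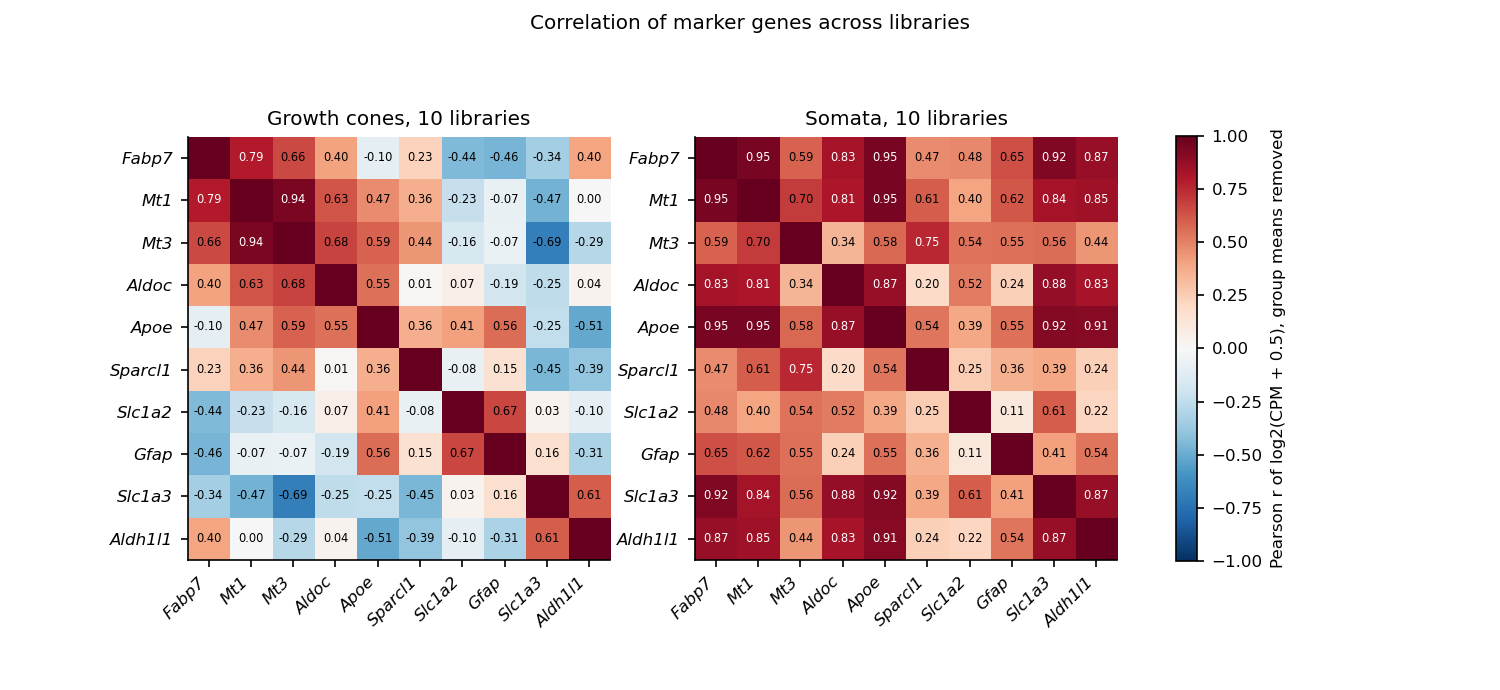
Pearson r between the 10 genes across the 10 growth cone libraries (left) and the 10 soma libraries (right), from log2(CPM + 0.5) relative to the mean of each genotype label; red is positive and blue negative. All soma pairs are positive (0.11 to 0.95), while growth cone pairs run from -0.69 to 0.94.

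The genes whose pattern was most like the mean of the 10 were looked for in each compartment, again over 10 libraries and with no test. In somata they were Gja1, the main connexin of astrocyte gap junctions (r = 0.97), Slco1c1, a thyroid hormone transporter (0.94), Herc1 (0.93), Tcf4 (0.93) and Hsp90b1 (0.92). In all, 21 genes reached 0.9, a count that did not leave out the 10 genes themselves or symbols that are only identifiers. In growth cones they were Cbx5 (0.94), Ddt (0.92), Timm21 (0.91), Snhg12 (0.91) and Pam16 (0.90), and 6 genes reached 0.9, counted in the same way. There the 10 genes had a median pairwise r of 0.034, so their mean describes them poorly. How many of the 11641 genes would reach 0.9 by chance was not tested. Gja1 was in the wider astrocyte list, and none of the other 9 genes was in any list used here.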

How the data were processed

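The deposited file is 1 table of raw counts per gene, which the authors did not scale, with 20 library columns and 0 rows that name no gene. The submitters' processing notes name Trimmomatic 0.39, STAR 2.7.1a, featureCounts 1.5.0 and build GRCm39, while the coordinates in the table are those of GRCm38: exon coordinates equal those of GENCODE M21 for 54435 of 55487 genes (98.1%), and that release gave the symbols. The labels' protocols name SMART-seq v4 and Nextera XT, with no molecular identifiers mentioned, so floors cover counting error only. Use of strand and of reads that map to several places is not given in the sources used here.

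Counts were tested with edgeR 4.0.16 in R 4.3.3 (quasi-likelihood F test, TMM scaling, filterByExpr with a minimum count of 10, Benjamini-Hochberg adjustment over all genes, false discovery rate 0.05), which gave every adjusted p unless DESeq2 1.42.0 or limma 3.58.1 (voom) is named. Only the groups compared entered a fit, except for the interaction. SE were derived from the F statistic. Levels of single genes are CPM with TMM factors over all 20 libraries, and errors are SD over n = 5. Levels summed over a list, and shares of counts, use library totals without TMM factors. The smallest chi-square per degree of freedom between libraries of a group was 56.6, so none were merged. Alternatives covered scaling, filter, test, libraries and covariates.

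The 10 genes and the lists were chosen with earlier results of these data known. Genes named were the 10, Bcl11b, Mt2, Aldoa and Slc1a1, from each list up to 4 genes with the lowest p past the threshold and a mean of 5 CPM or more in 1 of the groups, and the 5 genes most like the 10 in each compartment. Of those the rule allows from the lists, only some are given.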

Additional observations from a re-analysis of the deposited data

Results flagged for a closer look

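A gap test (Dixon, critical value 0.71 for 5 samples) was applied to 52 sets of 5 libraries, 1 for each gene and group. It marked 2 sets, and chance marks about 5% of such sets. Aldoc was low in WT soma library 12, at 8.08 CPM, where the nearest other WT soma library had 24.2 CPM. Gfap was high in WT growth cone library 11, at 99.1 CPM, where the nearest other had 50.4 CPM.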

How the results depend on the processing

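Fabp7, Slc1a3, Slc1a2, Mt3, Mt1, Aldoc and Apoe were called higher in growth cones under both labels in each of 18 alternative analyses. By limma-voom the WT log2 differences of Slc1a3, Apoe and Gfap were 2.90, 3.52 and 4.42, more than 1.5 times the edgeR folds. No paired analysis was possible because growth cones and somata share no experiment numbers. Of the 10 genes, 1 (Mt3) was called between labels in somata with scaling to library totals alone, by DESeq2, by limma-voom and in the fit of all 20 libraries. Leaving out 1 library gave 0 to 1 such calls. The interaction had 1 call by DESeq2. The cause was not tested. For the experiment numbers, same-numbered growth cone libraries had a correlation of deviations across genes of 0.028 to 0.11, and each was highest with its own number (5 of 5). In somata it was 0.024 to 0.15, and only numbers 14 and 25 were highest with their own number in both directions. The main tests between labels did not take the numbers as pairs, also in growth cones, where each matched its own. The replicate block was the alternative that did. It left out WT soma library 12 and soma library 15 labelled KO, whose numbers have no partner. With the replicate block 0 of the 10 genes were called between labels in either compartment, as without it, and 0 in the interaction.

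Signs turned where the estimate was smaller than its SE. Sparcl1 between compartments in libraries labelled KO was 0.0254 under upper quartile scaling. Between labels in somata, Fabp7 was -0.11 with the replicate block, a fit without WT soma library 12. Leaving out that library alone gave -0.12. Between labels in growth cones, scaling to library totals alone gave -0.0064 for Fabp7 and -0.0086 for Sparcl1, and Aldoc was 0.0199 by limma-voom and 0.0273 with the replicate block. In the interaction, the replicate block gave 0.10 for Fabp7 and 0.64 for Aldh1l1. Leaving out WT soma library 12 alone gave 0.11 and 0.12. A term for how many genes were detected gave 0.0188 for Slc1a3, and limma-voom gave -0.13 for Slc1a1. Leaving out 1 library at a time gave, in somata, -0.21 to 0.36 for Fabp7 and -0.15 to 0.48 for Slc1a3. In growth cones it gave -0.0519 to 0.12 for Fabp7, -0.22 to 0.15 for Slc1a3, -0.28 to 0.18 for Slc1a2, -0.21 to 0.0844 for Mt3, -0.29 to 0.0703 for Mt1, -0.13 to 0.14 for Aldoc, -0.0951 to 0.0926 for Sparcl1, -0.25 to 0.16 for Mt2, -0.0800 to 0.0432 for Aldoa and -0.28 to 0.11 for Slc1a1. In the interaction it gave -0.38 to 0.21 for Fabp7, -0.53 to 0.12 for Slc1a3, -0.45 to 0.23 for Aldh1l1 and -0.20 to 0.20 for Slc1a1. Of 40 group means, 0 moved by more than 1 SD without TMM scaling. Gfap in somata had 3 counts in 1 library, which limits its WT difference.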

Other observations

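Growth cone libraries of both labels carry the experiment numbers 7 to 11, and some of the astrocyte genes had their extremes at the same number under both labels. Mt3, Mt1 and Aldoc were each lowest in library 10 (for Aldoc 163 CPM in WT and 202 CPM in the library labelled KO), while Slc1a3 was highest there (302 and 362 CPM). Aldh1l1 was highest in library 8 (46.2 and 57.1 CPM), and Aldh1l1 and Slc1a3 were both lowest in library 11. Gfap did not share its lowest number, which was 8 in WT (42.6 CPM) and 7 in libraries labelled KO (27.2 CPM). In somata, library 25 labelled KO was highest in its group for 6 of the 10 genes and library 22 labelled KO lowest for 6, while in WT library 26 was highest for 6.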
